A study of Homo sapiens with 4 samples.

Results

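The genes described here are 10 noncoding host genes of small nucleolar RNAs (snoRNAs): GAS5, SNHG1, SNHG3, SNHG5, SNHG8, SNHG12, SNHG15, SNHG16, DANCR and ZFAS1. They are 10 of the 64252 gene IDs in the count table, and all 10 are among the 18817 genes that had enough counts to be tested. They were chosen by their difference between the treated and control libraries described below, so that their values in that comparison are given as a description. The number of them that passed the test of all genes is given once for completeness and supports nothing.

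RNA was sequenced from J.gamma1, a subline of the human T-cell leukaemia line Jurkat, known for its lack of the phospholipase PLCG1. One group received FB23-2, a small-molecule inhibitor of the RNA m6A demethylase FTO, at 10 µM for 48 h. The control group was kept for the same 48 h with only the solvent DMSO, at below 0.1%. Each group had 2 libraries, which the labels describe as independent biological replicates, and the design text gives as its purpose to find genes whose RNA the compound alters. All libraries come from 1 cell line, and 1 dose and 1 time were used.

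A snoRNA host gene is transcribed and spliced like other genes, but snoRNAs are cut out of its introns after splicing. Box C/D snoRNAs guide 2′-O-methylation and box H/ACA snoRNAs guide pseudouridylation of ribosomal RNA, and a few, such as SNORA73 and SNORD22, act in the cleavage of its precursor. The spliced exons of a noncoding host are left as a long noncoding RNA, which is often short-lived because nonsense-mediated decay removes it when it is translated. Many hosts begin with a run of pyrimidines (a 5′ TOP start), as ribosomal protein genes do. In the count table the hosts and their snoRNAs have separate rows.

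RefSeq places 37 snoRNAs inside the 10 hosts. GAS5, known as a growth arrest gene, holds 11 of them, SNHG1 holds 9, SNHG12 holds 4, SNHG16 and ZFAS1 hold 3 each, SNHG3 and SNHG5 hold 2 each, and DANCR, SNHG15 and SNHG8 hold 1 each. By name, SNHG3, DANCR, SNHG15 and SNHG8 hold only H/ACA snoRNAs. SNHG5, SNHG16, ZFAS1 and SNHG1 hold only C/D snoRNAs, leaving aside 1 in SNHG1 whose name gives no class. GAS5 and SNHG12 hold both kinds.

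The starts of the genes are shown because the hosts differ there in a way that the choice of members did not use. Each stretch runs from 45 bases before to 25 bases after the RefSeq start (GRCh38.p14), 5′ to 3′ on the strand of the gene. Capitals mark a TATA box (TATATAA) where there is one, and the longest run of C and T that begins with C within 20 bases of the start. SNHG12 is at chr1:28581849-28581918 on the minus strand, SNHG5 at chr6:85678709-85678778 on the minus strand, ZFAS1 at chr20:49278597-49278666 on the plus strand, SNHG16 at chr17:76557719-76557788 on the plus strand and SNHG8 at chr4:118278717-118278786 on the plus strand.
SNHG12: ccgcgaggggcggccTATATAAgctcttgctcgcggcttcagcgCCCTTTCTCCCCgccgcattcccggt
SNHG5: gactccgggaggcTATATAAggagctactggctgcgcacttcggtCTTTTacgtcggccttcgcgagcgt
ZFAS1: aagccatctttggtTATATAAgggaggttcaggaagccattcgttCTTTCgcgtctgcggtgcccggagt
SNHG16: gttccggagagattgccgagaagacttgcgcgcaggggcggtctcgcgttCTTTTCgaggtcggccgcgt
SNHG8: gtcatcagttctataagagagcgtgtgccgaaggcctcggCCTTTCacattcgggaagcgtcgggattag

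RefSeq promoter windows of 300 bases (250 before and 50 after the start) were at hand for 9 of the 10 hosts, all but SNHG15. A TATA box (TATATAA or TATAAA on the gene's strand in the 50 bases before the start) was in 3 of the 9, against 3.06% of all 35116 windows. That search was chosen after the sequences had been looked at. A run of at least 5 pyrimidines beginning with C lay within 20 bases of the start in 8 of the 9 hosts, against 51% of all windows. For runs of at least 7 the order was the other way, with 1 of the 9 hosts against 22.5% of all windows. In DANCR, SNHG3 and SNHG1, which are not shown above, the run began at positions 16, 20 and -19. Counted from the RefSeq start itself, the unbroken run was 11 bases in SNHG12 and 5 in SNHG5 and ZFAS1. It was at most 3 bases in the rest, and no share of all windows is given for that measure. The host without a run of 5 within 20 bases was GAS5, whose RefSeq start lies 163 bases upstream of its GENCODE start. Larger mismatches occur in hosts with a run and a TATA box. The RefSeq starts of SNHG12 and ZFAS1 lie 1259 and 464 bases downstream of their GENCODE starts. The palindromic E-box CACGTG, the site that MYC and related factors are known to bind, was in 0 of the 9 windows and in 7.26% of all windows. These matches describe letters in the windows and not bound sites.

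Among the GENCODE transcripts of the 10 hosts, 21 of 135 (15.6%) began with C followed by at least 4 pyrimidines, against 2.41% of all 206694 transcripts and 2.5% of 26944 transcripts of long noncoding RNA genes. Transcripts of 1 gene often share a start. Counted by gene, 8 of the 10 hosts had such a transcript, all but DANCR and SNHG15, against 16.5% of the 17522 genes with 3 to 29 transcripts, the range of the hosts. Only that range was matched, and a gene with more transcripts has more chances of such a start. SNHG1, for example, had it in 1 of 25 transcripts. Transcripts of GAS5 and SNHG16, which lie on different chromosomes, began with the same 11 bases, as the first 24 bases of each show, with the pyrimidine run in capitals (GENCODE release 29).
GAS5-210: CTTTTCgaggtaggagtcgactcc
SNHG16-204: CTTTTCgaggtcggccgcgtggct

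Library totals ran from 24615359 to 37804516 counts, so that 3 counts, the limit that a count of 0 allows, were 0.0785 to 0.125 CPM (counts scaled to library size). Levels below are CPM after TMM scaling, in which the common biological coefficient of variation was 10.5%. The 12 markers fixed for a T-cell leukaemia line all reached 5 CPM, with summed levels of 2287 to 2359 CPM with FB23-2 and 2771 to 2790 CPM in control. These markers had no common direction, with log2 fold changes (FB23-2 over control) from -0.76 for CD3D to 0.70 for TRAC. RNA of PLCG1 was present, at 295 and 291 CPM with FB23-2 and 265 and 265 CPM in control, which says nothing of its protein. Of 11 markers of other cell types, 3 reached a mean of 5 CPM (CD79A, PECAM1 and CD68), and their list summed to 116.7 CPM in each FB23-2 library and 153.6 to 163.3 CPM in control. CD68, a lysosomal marker of macrophages, was at 8.82 and 13.8 CPM with FB23-2 against 0.623 and 1.02 CPM in control, but the other myeloid markers did not share this: CD14 had 2 and 3 counts against 5 and 5, and LYZ was at 0.262 and 0.605 CPM against 1.08 and 0.581 CPM. PECAM1, of endothelial and blood cells, held the largest share of the list sum and was at 55.96 and 51.5 CPM against 109.7 and 107.2 CPM. The red cell marker HBB was at 0 in all but 1 library. The part of these marker differences in the results below was not tested, and in bulk RNA fewer cells of a kind and less RNA per cell cannot be told apart.

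All 10 host RNAs were lower with FB23-2, from 5.16-fold lower for SNHG3 to 1.35-fold lower for SNHG1. Their summed level was 478 and 453 CPM in the FB23-2 libraries and 1048 and 1013 CPM in the control libraries. The median log2 fold change of the 10 was -1.48, where that of all tested genes was 0.00. By edgeR's quasi-likelihood test at an adjusted p below 0.05, 10 of 10 were called lower, and 20.3% of all tested genes were. In all 10 both FB23-2 libraries lay below both control libraries, which was so for 34.5% of all tested genes. Since the hosts were selected on this contrast, nothing is read from these counts. At least 2-fold lower were 7 hosts, and 6.51% of all tested genes. The smallest of the 7 was GAS5 at 2.63-fold, and the nearest host outside them was SNHG12 at 1.82-fold.

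**Figure D1:**
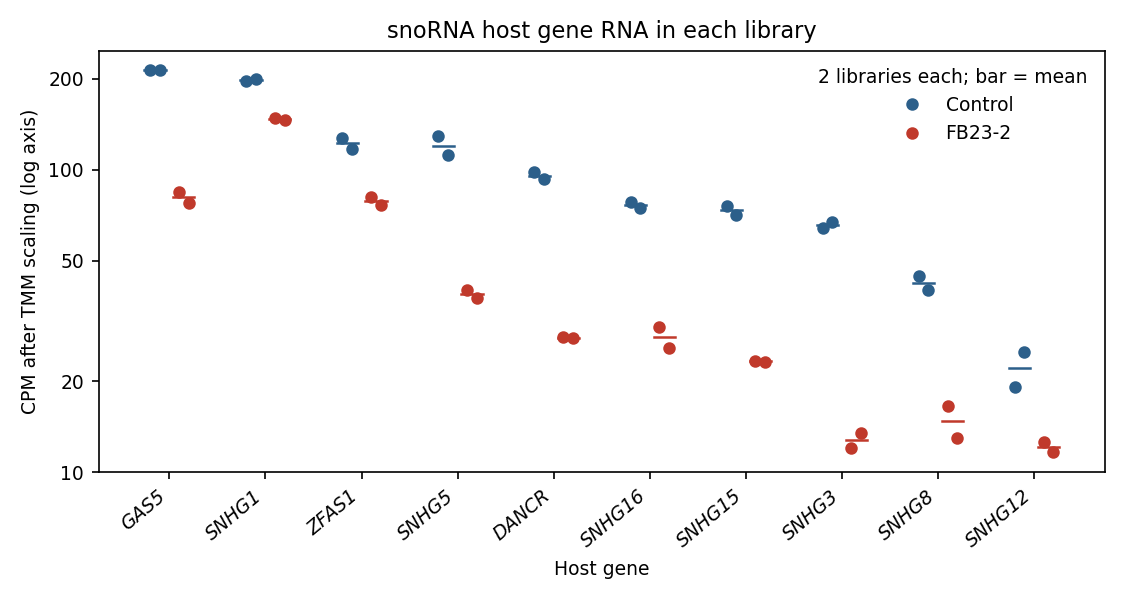
Level of each host RNA in each library, in CPM after TMM scaling on a log axis, with hosts ordered by their control mean, points for the 2 libraries of a group and bars for the mean. The FB23-2 points lie below the control points for every host, with the widest separation for SNHG3 (12.7 against 65.7 CPM) and the narrowest for SNHG1 (147 against 199 CPM).

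The 4 hosts that hold only H/ACA snoRNAs ranged from -2.37 to -1.50 in log2 fold change. SNHG3, host of the paired SNORA73A and SNORA73B (U17) snoRNAs on chromosome 1 (28505980 to 28510892, plus strand), was at 12.01 and 13.5 CPM with FB23-2 and 64.2 and 67.2 CPM in control. The control libraries were both high and close together, the groups did not overlap, and the log2 fold change was -2.37 ± 0.08 (SE, n = 2 per group), the lowest of the 10 and 123rd from the bottom of all tested genes. DANCR, a noncoding RNA named for holding back differentiation (chromosome 4, 52712404 to 52720351, plus strand), was at 28.0 and 27.7 CPM against 98.15 and 92.95 CPM. Its FB23-2 libraries differed by only 1.19%, the smallest gap between replicates in that group, and its log2 fold change was -1.78 ± 0.06.

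SNHG15, host of SNORA9 (chromosome 7, 44983023 to 44986961, minus strand), gave 23.4 and 23.1 CPM with FB23-2 and 76.1 and 70.7 CPM in control. As for DANCR, the FB23-2 pair was tighter than the control pair, the groups did not overlap, and the log2 fold change was -1.66 ± 0.07. SNHG8, the shortest host, which holds SNORA24 (chromosome 4, 118278709 to 118279823, plus strand), was at 16.5 and 12.9 CPM against 44.5 and 39.9 CPM. Its FB23-2 libraries differed by 27.8%, the widest gap in that group, yet both stayed far below the control libraries. The log2 fold change of SNHG8 was -1.50 ± 0.12, and it ran from -1.72 without FB23-2 replicate 1 to -1.34 without FB23-2 replicate 2.

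The 4 hosts that hold only C/D snoRNAs spread more widely, from -1.62 to -0.43. SNHG5, host of the SNORD50 (U50) snoRNAs (chromosome 6, 85660950 to 85678748, minus strand), was at 40.1 and 37.7 CPM with FB23-2 and 129 and 112 CPM in control. The control libraries differed more than the FB23-2 libraries did, without overlap between the groups, and the log2 fold change was -1.62 ± 0.08. SNHG16, host of the SNORD1 snoRNAs (chromosome 17, 76557766 to 76565348, plus strand), was at 30.3 and 25.7 CPM against 78.5 and 74.9 CPM. Here the FB23-2 libraries were the more spread pair, and the log2 fold change was -1.45 ± 0.08.

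ZFAS1, the antisense RNA at the start of ZNFX1 and host of the SNORD12 snoRNAs (chromosome 20, 49278178 to 49295738, plus strand), was at 81.55 and 76.7 CPM with FB23-2 and 127 and 117 CPM in control. The gap between the groups, from 81.55 to 117 CPM, was wider than the gap within either, and the log2 fold change was -0.62 ± 0.06. SNHG1, host of SNORD22 and SNORD25 to SNORD31 (chromosome 11, 62851988 to 62855914, minus strand), was at 149 and 146 CPM against 197 and 200 CPM. It had the smallest difference of the 10, a log2 fold change of -0.43 ± 0.04, from 4751 to 6893 counts per library. Its replicates differed by 2.15% with FB23-2 and 1.54% in control.

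GAS5 and SNHG12 hold both kinds of snoRNA. GAS5 (chromosome 1, 173863900 to 173868882, minus strand), an RNA known to accumulate when cell growth stops, was at 84.7 and 77.9 CPM with FB23-2 and 214.3 and 213.4 CPM in control. The control libraries differed by 0.455%, the FB23-2 libraries by 8.81%, and the log2 fold change was -1.39 ± 0.05. SNHG12, which lies downstream of SNHG3 on the other strand of chromosome 1 (28578538 to 28583132, minus strand), was at 12.5 and 11.7 CPM against 19.05 and 25.01 CPM. The low control library lay between the other control library and the FB23-2 libraries, and the control pair differed by 31.3%, the widest replicate gap of any host. Its log2 fold change of -0.88 ± 0.14 had the largest SE of the 10, and became -1.06 without control replicate 1 and -0.65 without control replicate 2.

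The replicates of a group differed in the same direction for most hosts, and no share of all tested genes is given for this. FB23-2 replicate 2 was lower than replicate 1 for 9 of the 10 hosts, SNHG3 being the exception, and control replicate 2 was lower than replicate 1 for 7 of 10. In the summed levels above these shifts were small beside the difference between groups. For single hosts they could be larger, as in SNHG12, whose control libraries differed by 31.3% where the groups differed 1.82-fold.

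**Figure D2:**
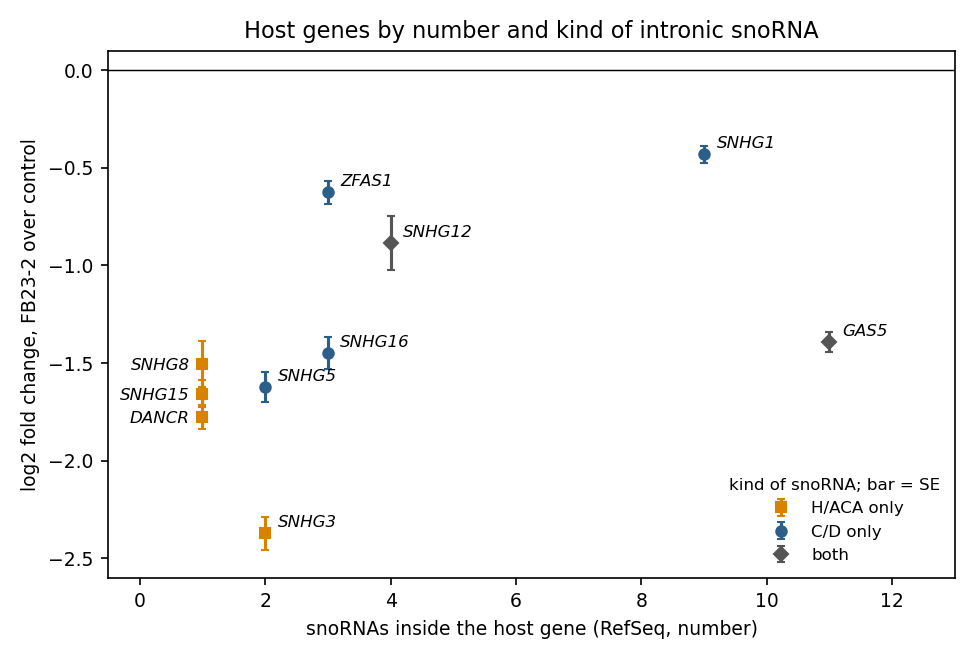
Log2 fold change of each host (FB23-2 over control, with its SE) against the number of snoRNAs that RefSeq places inside it, with the marker showing their kind. The 5 hosts with at most 2 snoRNAs lie at -1.50 or below, and the 5 with at least 3 lie at -1.45 or above.

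The hosts with few snoRNAs had the larger differences. The 5 hosts with at most 2 snoRNAs (SNHG3, DANCR, SNHG15, SNHG5 and SNHG8) had a median log2 fold change of -1.66, with a range of -2.37 to -1.50. The 5 with at least 3 had a median of -0.88, with a range of -1.45 to -0.43. The 2 ranges met between SNHG8 and SNHG16, whose values lay within 1 SE of each other, and GAS5 with 11 snoRNAs was lower than SNHG12 and ZFAS1 with 4 and 3. By kind, the medians were -1.72 for the 4 hosts with H/ACA snoRNAs alone and -1.04 for the 4 with C/D snoRNAs alone. All 4 hosts with H/ACA snoRNAs alone are among the 5 with at most 2, so number and kind cannot be told apart. These orderings were seen after the values, cover 10 chosen genes and were not tested.

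Per kilobase of exon, with the exons of all transcripts joined, GAS5 was the most abundant host in control, at 58.9 ± 0.189 CPM per kb (SD, n = 2). This joined length exceeds the median transcript by unequal amounts, with 3631 against 688 bases for GAS5 and 923 against 470 for SNHG8. The order given here therefore holds for this choice of length only. ZFAS1 (54.5 ± 3.08) and SNHG1 (52.9 ± 0.573) came next and overlapped each other. SNHG8 (45.7 ± 3.49), SNHG5 (42.9 ± 4.401) and DANCR (41.8 ± 1.61) lay below them, with SNHG5 overlapping both others and SNHG8 above DANCR in both libraries. SNHG15 (20.1 ± 1.04), SNHG3 (16.1 ± 0.526), SNHG16 (14.3 ± 0.471) and SNHG12 (5.16 ± 0.988) followed, each separate from its neighbours in the order.

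With FB23-2 the order changed at the top. SNHG1 led at 39.25 ± 0.590 CPM per kb, followed by ZFAS1 at 35.3 ± 1.52, and GAS5 was now the third at 22.4 ± 1.34. SNHG8 (15.97 ± 2.76) and SNHG5 (13.9 ± 0.602) again overlapped, and DANCR (12.2 ± 0.102) lay below both. SNHG15 (6.37 ± 0.0545) and SNHG16 (5.22 ± 0.595) came next. On the same joined length, SNHG3 was at 3.12 ± 0.251 CPM per kb, near SNHG12 (2.84 ± 0.143). In control SNHG3 had been well above SNHG12, at 16.1 against 5.16 CPM per kb.

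The rows of the snoRNAs themselves held almost no counts. The table has 23 snoRNA rows that lie inside 9 of the hosts on the same strand, none of them in GAS5, for which GENCODE release 29 lists no snoRNA. In 13 of the 23 the count was exactly 1 in every library, as it was for 497 IDs of the whole table, and 17 never passed 2. All 23 rows together held 247 counts over the 4 libraries, while SNHG12 alone, the host with the fewest, held 405 to 861 in each. Libraries made from fragments of long RNA are known to pass over RNAs as short as a snoRNA. Of the 497 IDs at exactly 1, 114 are snoRNAs, and whether the table holds counted reads or values derived from StringTie coverage is not stated. If they were derived, the rows at 1 need not be single reads, and the limits from counts given here would not hold for them. These rows are therefore not read as levels of the mature snoRNAs.

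Only 4 of the rows reached 10 counts in any library, and 3 of their sequences are shown so that the kind of element inside the hosts can be seen. Capitals mark box C (TGATGA) and box D (CTGA) in a C/D snoRNA, and the ACA box near the 3′ end in an H/ACA snoRNA. SNORD30 lies in SNHG1 at chr11:62853663-62853732 on the minus strand, SNORA26 in DANCR at chr4:52713249-52713370 on the plus strand, and SNORD12B in ZFAS1 at chr20:49280319-49280409 on the plus strand (hg38).
SNORD30: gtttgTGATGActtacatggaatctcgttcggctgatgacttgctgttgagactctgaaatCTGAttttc
SNORA26: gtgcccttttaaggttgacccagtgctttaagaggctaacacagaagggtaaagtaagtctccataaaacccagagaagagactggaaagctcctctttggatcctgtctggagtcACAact
SNORD12B: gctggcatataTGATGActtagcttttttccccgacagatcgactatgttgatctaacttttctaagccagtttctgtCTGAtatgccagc

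SNORD30 had 6 and 9 counts with FB23-2 and 10 and 19 in control, SNORA26 had 4 and 10 against 13 and 11, and SNORD12B had 2 and 3 against 2 and 10. The fourth row, SNORA73B in SNHG3 (chr1:28508559-28508762, plus strand), had 8 and 4 against 24 and 26, the highest of the 23. That row overlaps no annotated exon of SNHG3, and its counts cannot be told apart from unspliced host RNA. With so few counts no level is given for them.

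Genes next to the hosts were called in both directions. The nearest tested coding gene on each side of a host in GENCODE release 29, and the coding genes whose span crosses a host, gave 21 tested genes that are reported here. Of these 5 were called lower (against 20.3% of all tested genes), 6 were called higher (against 21.8%) and 10 were not called, with a median log2 fold change of 0.03. Both shares are near those of all tested genes. The genes that cross a host were added after the data had been seen.

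SLC3A2, which encodes the heavy chain of amino acid transporters and starts 188 bases from SNHG1 on the opposite strand, was at 234.5 and 228 CPM with FB23-2 and 163 and 166 CPM in control. It rose by 0.49 ± 0.04 (edgeR adjusted p = 1.85e-05), where SNHG1 was lower by 0.43. ZNFX1, a helicase of antiviral defence whose start lies 248 bases from that of ZFAS1 on the opposite strand, was at 70.1 and 70.6 CPM against 54.5 and 54.7 CPM. ZNFX1 rose by 0.37 ± 0.06 (edgeR adjusted p = 0.000675), where ZFAS1 was lower by 0.62. Both pairs of genes, which leave adjoining starts in opposite directions, thus had values of opposite sign.

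ZBTB37, a zinc finger gene that starts 800 bases from GAS5 on the other strand, was at 58.3 and 67.1 CPM with FB23-2 and 54.45 and 57.2 CPM in control. The difference of 0.16 ± 0.08 was not called (edgeR adjusted p = 0.123), though it was when FB23-2 replicate 1 was left out (0.0360). RCC1, the nucleotide exchange factor of the GTPase RAN, starts 37 bases from SNHG3 on the same strand and shares 242 bases of exon with it. RCC1 was at 107.3 and 107.2 CPM against 132.8 and 122 CPM and fell by 0.25 on the log2 scale (SE 0.05, edgeR adjusted p = 0.00477), where SNHG3 had the largest difference of all hosts.

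**Figure D3:**
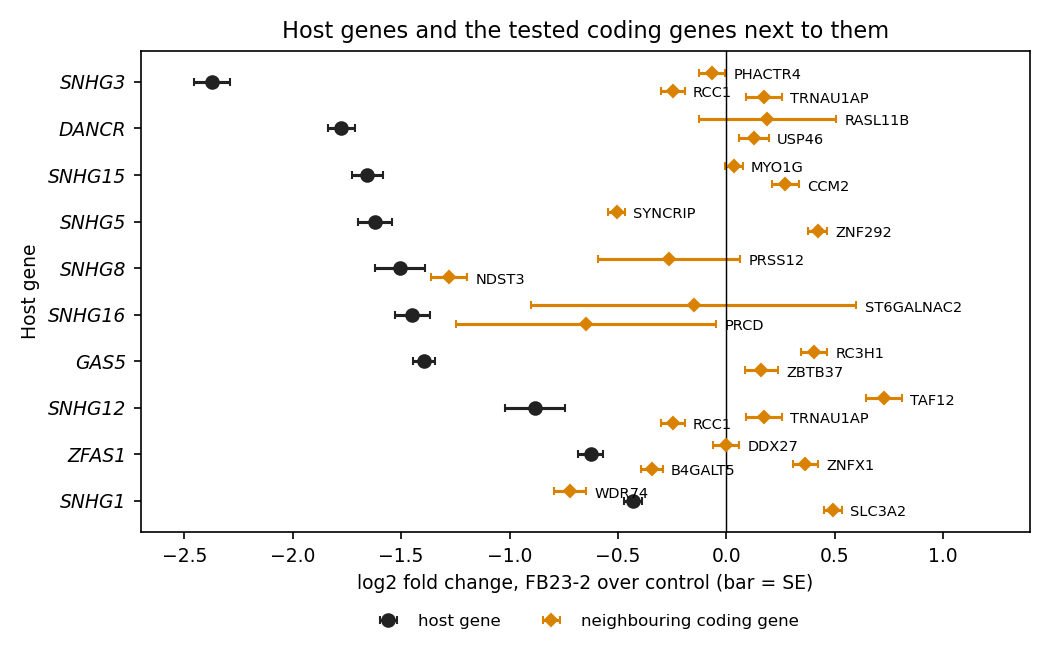
Log2 fold change (FB23-2 over control, bars are SE) of each host in black and of its tested neighbouring coding genes in orange, 1 line per host. The neighbours lie on both sides of 0, from NDST3 at -1.28 to TAF12 at 0.73, while all hosts lie to the left, and SLC3A2 and ZNFX1, which adjoin SNHG1 and ZFAS1, lie on the right.

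Other neighbours are farther from the host start. NDST3, a heparan sulfate enzyme gene that ends 20061 bases before SNHG8, fell by 1.28 on the log2 scale (SE 0.08, edgeR adjusted p = 4.25e-06). WDR74, a ribosome assembly factor next to SNHG1, fell by 0.72 (SE 0.07, edgeR adjusted p = 6.09e-05), and SYNCRIP, an RNA-binding protein gene next to SNHG5, fell by 0.51 (SE 0.04, edgeR adjusted p = 1.01e-05). TAF12, a subunit of the transcription factor TFIID, lies upstream of SNHG12 and rose by 0.73 ± 0.08 (edgeR adjusted p = 0.000121). PHACTR4, TRNAU1AP, MYO1G, USP46 and DDX27 had log2 fold changes of -0.06 to 0.17 and were not called. PRSS12, PRCD, ST6GALNAC2 and RASL11B, each below a mean of 2 CPM, were not called either.

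Among the more distant neighbours, RC3H1, 62332 bases upstream of GAS5, and ZNF292, 1474085 bases upstream of SNHG5, rose by 0.40 ± 0.06 and 0.42 ± 0.04 (edgeR adjusted p = 0.000618 and 6.84e-05). B4GALT5, 337207 bases downstream of ZFAS1, fell by 0.34 on the log2 scale (SE 0.05, edgeR adjusted p = 0.000460).

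The call of 1 neighbour rested on single libraries. CCM2, next to SNHG15, rose by 0.27 ± 0.06 (edgeR adjusted p = 0.00592), but it was not called when FB23-2 replicate 1 (adjusted p = 0.0625) or control replicate 2 (0.0762) was left out.

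Shared exon bases limit how far a host and an overlapping gene can be separated. ZNFX1 covers 11.1% of the exon bases of ZFAS1 on the opposite strand. RCC1 covers 5.92% of SNHG3, GAS5-AS1 covers 1.16% of GAS5, TRNAU1AP covers 0.188% of SNHG12, and an opposite-strand pseudogene covers 11.9% of DANCR. Where the strand setting of the counting is not stated, reads from such opposite-strand overlaps cannot be told apart.

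Of the other noncoding genes with an SNHG name, or a like host, 21 of 22 listed genes were found and 19 were tested. The counts of this and each following list stand against 20.3% of all tested genes called lower and 21.8% called higher. Called lower were 10, called higher 1, and 8 were not called, with a median log2 fold change of -0.66. The abundant SNHG29 was at 490 and 463 CPM with FB23-2 and 735 and 650 CPM in control and fell by 0.54 (SE 0.06, edgeR adjusted p = 0.000444). SNHG17 fell by 1.14 (SE 0.08, edgeR adjusted p = 7.28e-06), from 41.75 and 40.1 CPM in control to 17.95 and 19.2 CPM.

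SNHG19, SNHG20, SNHG10, SNHG30 and EPB41L4A-AS1 also fell, with log2 fold changes of -1.76, -1.36, -1.06, -0.74 and -0.66 and edgeR adjusted p values from 0.000137 to 0.00468. Not every abundant host did so. SNHG6 was at 107.4 and 99.8 CPM with FB23-2 and 116.6 and 100.6 CPM in control, overlapping groups with a log2 fold change of -0.06 ± 0.07. SNHG7, SNHG11 and SNHG32 likewise had overlapping groups, at -0.18, -0.03 and 0.02. SNHG14, a very long noncoding transcript that hosts brain snoRNAs, was at 107.8 and 120.2 CPM against 77.8 and 94.8 CPM, a log2 fold change of 0.39 ± 0.11 (edgeR adjusted p = 0.0330). SNHG14 was not called when FB23-2 replicate 1 (adjusted p = 0.0665), FB23-2 replicate 2 (0.140) or control replicate 1 (0.0517) was left out. The number of these genes called higher was 0 when FB23-2 replicate 2 or control replicate 1 was left out.

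**Figure D4:**
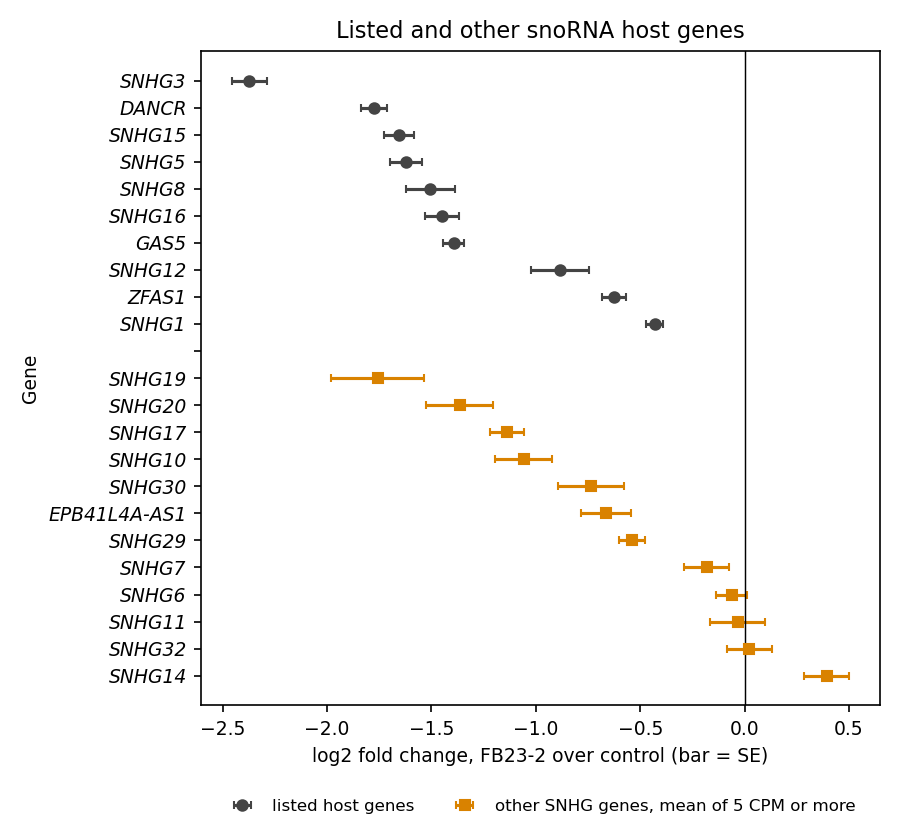
Log2 fold change (FB23-2 over control, bars are SE) of the 10 listed hosts above and of the 12 other SNHG genes with a mean of at least 5 CPM below. The other genes span from SNHG19 at -1.76 to SNHG14 at 0.39, with SNHG6, SNHG7, SNHG11 and SNHG32 close to 0.

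Most of the listed coding hosts were lower too. Among 22 ribosomal protein genes that are hosts, 20 were called lower and 0 higher, with a median log2 fold change of -0.44. RPL23 went from 901 and 929 CPM in control to 547 and 542 CPM with FB23-2 and fell by 0.75 (SE 0.04, edgeR adjusted p = 9.43e-07), and RPL5 fell by 0.65 (SE 0.05, edgeR adjusted p = 1.67e-05). RPL17 had a log2 fold change of -0.61 ± 0.13 (edgeR adjusted p = 0.0413), and was not called when FB23-2 replicate 1 (adjusted p = 0.235) or FB23-2 replicate 2 (0.271) was left out.

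Of 26 other well-known coding hosts, 23 were called lower and 1 higher, with a median of -0.73. HSPA8, a chaperone gene, fell by 1.94, PPAN, a ribosome assembly gene, fell by 1.48, and NOP56, a core snoRNP protein gene, fell by 1.32 (edgeR adjusted p values from 3.21e-08 to 1.06e-06). TPT1, a translation-linked tumour protein with a 5′ TOP start, rose by 0.34 ± 0.04 (edgeR adjusted p = 6.48e-05), from 1423 and 1377 CPM to 1807 and 1742 CPM. The 26 were chosen as well-known hosts. In a list of 204 tested coding genes with an annotated snoRNA inside, added after the data had been seen, 86 were called lower, 46 higher and 72 neither. Their median was -0.10. In a list of 31 other tested genes with an annotated snoRNA inside, added at the same stage, 7 were called lower, 2 higher and 22 neither. Their median was -0.24. The hosts described here were left out of both lists on purpose. Annotated host exons can cover a snoRNA wholly, as for SNORA24 in SNHG8 (131 of 131 bases). A snoRNA wholly covered by the joined exons of its host was not counted, so genes with only such snoRNAs are in neither list. Neither list is therefore read as the complete class of hosts.

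The RNAs of snoRNP proteins were counted next. All 8 snoRNP core protein genes, of which NOP56, NOP58 and DKC1 are also among the 26 hosts, were called lower, with a median log2 fold change of -0.89. FBL, the methyltransferase of C/D particles, went from 286 and 319 CPM in control to 163 and 156 CPM with FB23-2 and fell by 0.92 (SE 0.06, edgeR adjusted p = 2.85e-06). GAR1, of H/ACA particles, fell by 0.96 (SE 0.07, edgeR adjusted p = 6.29e-06).

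Of 11 snoRNP assembly factors, 8 were called lower (against 20.3% of all tested genes), 1 higher (against 21.8%) and 2 neither, with a median of -0.62. NOLC1, which gathers snoRNPs in Cajal bodies and nucleoli, fell from 289 and 272 CPM to 121.4 and 121.7 CPM, and NUFIP1 (-0.86) and RUVBL1 (-0.76) fell as well (edgeR adjusted p values from 3.48e-07 to 0.000302). RPAP3, the only one called higher, had a log2 fold change of 0.17 ± 0.05 (edgeR adjusted p = 0.0255). That call was lost when any 1 library was left out, with adjusted p values of 0.0565 to 0.160.

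Genes that act on the host RNAs showed no common direction. Of 18 nonsense-mediated decay factors, 6 were called lower (against 20.3% of all tested genes), 3 higher (against 21.8%) and 9 neither, with a median log2 fold change of -0.10. MAGOHB, of the exon junction complex, fell by 0.73 (SE 0.08, edgeR adjusted p = 7.53e-05), while UPF3B and PNRC2 rose by 0.42 ± 0.07 and 0.38 ± 0.04 (edgeR adjusted p = 0.000751 and 0.000119). DHX34, MAGOH and CASC3 were called at -0.39, -0.37 and 0.17. Their calls were lost when single libraries were left out: DHX34 without control replicate 2 (adjusted p = 0.0534), MAGOH without FB23-2 replicate 2 (0.0556) or control replicate 1 (0.0553), and CASC3 without FB23-2 replicate 1 (0.114) or either control library (0.0706 and 0.105).

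Of 11 genes of the mTORC1 pathway and of 5′ TOP control, 4 were called lower (against 20.3% of all tested genes) and 5 higher (against 21.8%), with a median of 0.02. AKT1S1 (-1.25 ± 0.12), RPTOR (-0.62 ± 0.06) and MLST8 (-0.57 ± 0.07) fell, and the small GTPase RHEB rose from 100.5 and 96.6 CPM to 140 and 141 CPM (0.51 ± 0.05), with edgeR adjusted p values from 2.98e-05 to 0.000146. EIF4EBP2 and TSC1 rose by 0.27 ± 0.04 and 0.27 ± 0.05 (edgeR adjusted p = 0.000463 and 0.00238). The number called higher was 3 when any 1 library was left out.

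**Figure D5:**
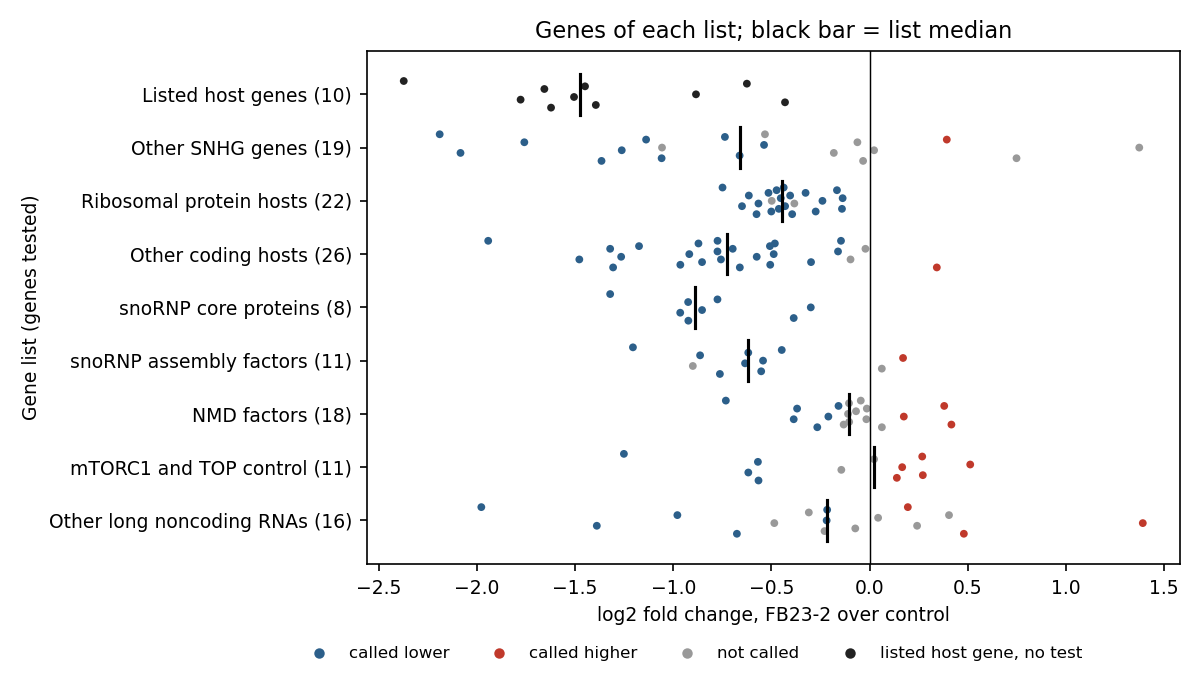
Log2 fold change (FB23-2 over control) of each tested gene by list, with a black bar at the list median and colours for the edgeR call. The 10 listed hosts have the lowest median, -1.48, but they were chosen on this contrast, so nothing is read from that rank. The other SNHG genes have a median of -0.66. The medians of the coding host and snoRNP protein lists lie between -0.89 and -0.44, and the NMD and mTORC1 lists straddle 0.

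Among 16 tested long noncoding RNAs that are not SNHG genes, 6 were called lower (against 20.3% of all tested genes), 3 higher (against 21.8%) and 7 neither, with a median log2 fold change of -0.22. MIAT fell by 0.98 (SE 0.09, edgeR adjusted p = 2.65e-05) and NORAD fell by 0.22 (SE 0.04, edgeR adjusted p = 0.00141). MALAT1, an abundant nuclear RNA, rose from 90.6 and 86.2 CPM to 211 and 252 CPM, by 1.39 ± 0.09 (edgeR adjusted p = 0.000110). CYTOR, TMPO-AS1 and OIP5-AS1 were called at -0.68, 0.48 and 0.19. Those calls were lost without control replicate 2 (adjusted p = 0.0916, 0.164 and 0.0594), and without FB23-2 replicate 1 for CYTOR (0.0727) and TMPO-AS1 (0.155) and control replicate 1 for OIP5-AS1 (0.0514). Without control replicate 2 the counts of the list were 3 lower and 1 higher.

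GAS5 lay nearest to the mean profile of the 10 hosts over the 4 libraries, at a distance of 0.0375 (Euclidean, log2 CPM centred on each gene's mean), and SNHG3 lay farthest, at 1.01. Outside the hosts, 11841 tested genes had a mean of at least 5 CPM. The 5 nearest among these were GFRA1, a receptor of a nerve growth factor (0.0575), NOP56 (0.0604), MRTO4, a ribosome assembly factor (0.0729), RBM3, a cold-induced RNA-binding protein (0.0791), and SPON2, a secreted matrix protein (0.0823). Their log2 fold changes ran from -1.40 to -1.32, and with 4 libraries in 2 groups such likeness reflects little more than the size of the difference.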

How the data were processed

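The authors deposited 1 table of whole-number counts per gene for all 4 libraries, with no normalization. Per the labels' protocols, RNA was isolated with Trizol, and a TruSeq RNA kit was used for the libraries. Per the submitters' processing notes, HISAT2 2.2.0, StringTie and hg38 were used. StringTie's version, the counting step, strandedness and annotation were not given in the sources used here.

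Genes were kept by filterByExpr (minimum count 10) of edgeR 4.0.16 in R 4.3.3, scaled by TMM and compared with the robust quasi-likelihood test, without a replicate block. P values were adjusted by Benjamini-Hochberg over all 18817 genes, with a threshold of 0.05. Log2 fold changes are those of the fit, and their SE was computed from the F statistic. Values per kb use the union of GENCODE release 29 exons. Gene neighbours and snoRNA rows came from the same release, and promoter windows and the snoRNAs inside hosts from RefSeq. The fit was tested on simulated data.

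The members and the gene lists were chosen with earlier results of these data known. Some neighbouring genes are not reported here. Named genes were all members and the other neighbours, every other SNHG gene at a mean of 5 CPM or more, up to 3 called genes per list and direction at that level, and the 5 genes nearest to the mean profile of the members. The replicate libraries were compared and none was a copy of another: chi-square values per degree of freedom were 6.69 and 7.48 within groups and 74.6 to 82.3 between groups. Alternatives were other scalings, DESeq2 1.42.0, other filters, a replicate block and leaving out each library.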

Additional observations from a re-analysis of the deposited data

How the results depend on the processing

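The 10 hosts were chosen on this contrast, so their values under the 11 alternatives are a description. All 10 stayed below 0, and their median log2 fold change of -1.48 ran from -1.64 to -1.34 over the fits that left out 1 library, without FB23-2 replicates 1 and 2 respectively. SNHG1 was at -0.47 with upper quartile scaling and -0.38 with library size scaling. These scalings moved the median of all genes by less than 0.1, to -0.04 and 0.05, but changed the split of calls from 3820 lower and 4097 higher to 4231 and 3639 with upper quartile scaling, and to 3395 and 4624 with library size scaling.

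Small counts of called genes moved. Other SNHG genes called higher numbered 0 with upper quartile scaling, 2 with the replicate block and 0 to 1 when a library was left out. Assembly factors called higher numbered 0 with upper quartile scaling, with DESeq2, without a filter and when any library was left out. For mTORC1 and 5′ TOP control genes the number called higher was 3 in those same settings. Other long noncoding RNAs called lower ran from 3 to 6 and higher from 1 to 3 over the fits that left out 1 library. The cause was not tested.

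The labels share only replicate numbers. Same-numbered libraries deviated together with a correlation of 0.0623 over the 2 pairs, so the numbers were not taken as pairs. With the replicate block, 4030 genes were called lower and 4238 higher, and the median of the hosts was -1.49. Where 1 library was left out, the remaining one of its group was assumed to vary like the other group. With 2 libraries per group, precision rests mainly on the 405 to 7345 counts per host and on the spread shared across genes. The limits that a count of 0 allows cover counting error alone.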
